A study of Mus musculus with 12 samples.

Results

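The genes described here are 8 genes whose products fold, glycosylate or regulate the making of mucins: Agr2, Ern2, Gcnt3, Galnt3, Galnt7, Fut2, St8sia6 and Creb3l1. They were found by symbol in the array annotation, which gave 18 probe sets for the 8 genes, out of 45101 probe sets and 18194 genes with a single symbol. Expression was measured in whole lung of male A/J mice aged 8 to 10 weeks, on day 4 after the particle dose, on 12 Affymetrix whole-genome mouse arrays in 4 groups of 3. Control mice were given phosphate-buffered saline (PBS) in place of every exposure. OVA mice, the model of allergic asthma, received ovalbumin at 0.4 mg/kg into the peritoneum on day 0 and at 30 mg/kg into the trachea on day 14, with PBS in place of particles. PM mice received ambient particulate matter collected in Baltimore (50 µl of a suspension of 10 mg/ml into the airway), with PBS in place of ovalbumin. OVA/PM mice received both exposures. The labels name no allele or transgene, and by the methods each group had lung RNA of 3 animals.

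The names of the single exposures carry a doubt. Of 28 folds tabulated for the single exposures, 28 matched at the printed digit the ratios of linear means of these arrays once the names OVA and PM were exchanged, and 4 matched with the names as they stand. The labels are kept here, the groups are called OVA-labelled and PM-labelled, and every direction given for either rests on its label. Whether the labels or the tabulated names are the exchanged ones was not settled here. An exchange of labels would swap these 2 groups and leave Control and OVA/PM as they are.

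Mucins are long glycoproteins that give airway mucus its gel. Their cysteine-rich ends are folded and linked by disulfides in the endoplasmic reticulum, and their serine- and threonine-rich stretches are then coated with O-glycans in the Golgi apparatus. The first sugar, N-acetylgalactosamine, is added by the polypeptide GalNAc transferases (Galnt genes), and the chains are branched and finally capped with fucose or sialic acid. In the airway the mucins of mucus are made mainly by goblet and other secretory cells, whose number and mucin load grow in allergic inflammation.

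Values are log2 intensities after GCRMA, so a difference of 1 is a doubling. The median of all values, 4.93, served as the level a probe set had to reach in all 3 arrays of at least 1 compared group before it was tested, and 49.6% to 50.4% of the probe sets of each array lay at or above it. Lung markers were at high levels in every group, with group means of Sftpc (surfactant protein C) between 15.51 and 15.65 and of Scgb1a1 (the club cell secretory protein) between 15.95 and 16.05. One array stood apart: BioB and BioC, bacterial transcripts spiked in as hybridization controls, had intensities of 6.65 and 7.56 in OVA/PM replicate 3 while no other array exceeded 4.68 and 3.95, so results with OVA/PM are also given without it. As a sign of RNA integrity, the 3′ and 5′ probe sets of Actb differed by 0.41 to 0.50 in Control, 0.48 to 0.90 in the PM-labelled arrays (the highest in replicate 3), 0.43 to 0.57 in the OVA-labelled arrays and 0.61 to 0.81 in OVA/PM, and the part of this difference in the results was not tested.

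Across the 4 groups, 5 of the 8 genes were measured and 3 were not. Agr2, Galnt3, Galnt7, St8sia6 and Creb3l1 all rose in OVA/PM against Control. Ern2, Gcnt3 and Fut2 lay under the level in all 12 arrays with every probe set. Of the 18 probe sets, 8 were under the level in all 12 arrays and 6 were at or above it in all 12. For each of the 5 measured genes the group means stood in the order Control, PM-labelled, OVA-labelled, OVA/PM, an order that 14.7% of the 11414 genes kept in the fit of all 4 groups shared. No member differed between neighbours in that order by limma at an adjusted p under 0.05 with its main probe set, the one with the highest mean. Galnt3, Galnt7 and St8sia6 reached the level in every array, while Agr2 and Creb3l1 passed the filter only through exposed groups, since 1 Control array of each lay under it. Counts of members called against Control are therefore descriptions.

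**Figure D1:**
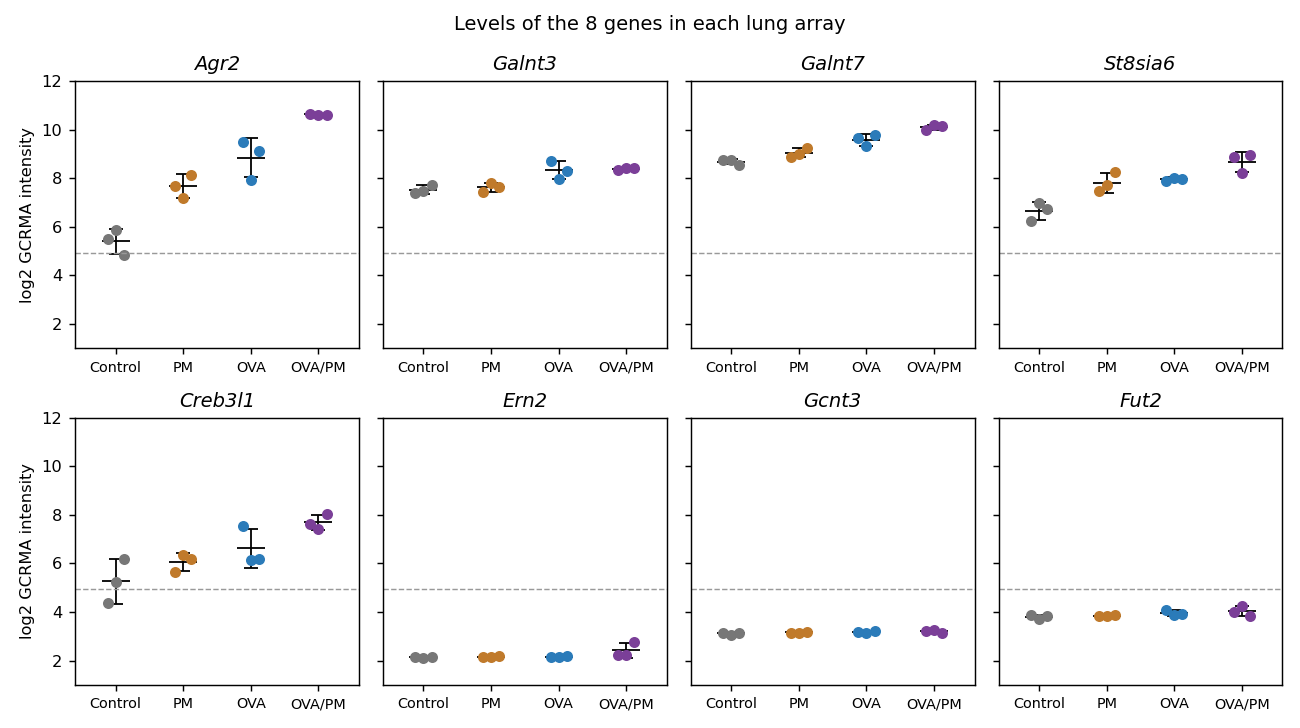
Log2 GCRMA intensity (vertical axis) of the 8 genes in each of the 12 lung arrays, by group (horizontal axis, 3 arrays each), for the probe set with the highest mean. Black bars give the group mean and SD, and the dashed line is the level of 4.93. Agr2 climbs from about the dashed line in Control to 10.63 in OVA/PM, while Ern2, Gcnt3 and Fut2 stay under the line in every array.

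RefSeq promoter sequences (GRCm38.p6, from 250 bases before to 50 bases after the annotated start) matched 4 of the 8 genes: Agr2, Galnt3, Galnt7 and St8sia6. They are shown since all 4 genes rose together in OVA/PM, and to set their base composition side by side. The Agr2 window is chr12:35992675-35992974 on the + strand, the Galnt3 window chr2:66124744-66125043 on the - strand, the Galnt7 window chr8:57653006-57653305 on the - strand and the St8sia6 window chr2:13793471-13793770 on the - strand. Each is written 5′ to 3′ on the strand of the gene, and capitals mark CpG dinucleotides:
Agr2: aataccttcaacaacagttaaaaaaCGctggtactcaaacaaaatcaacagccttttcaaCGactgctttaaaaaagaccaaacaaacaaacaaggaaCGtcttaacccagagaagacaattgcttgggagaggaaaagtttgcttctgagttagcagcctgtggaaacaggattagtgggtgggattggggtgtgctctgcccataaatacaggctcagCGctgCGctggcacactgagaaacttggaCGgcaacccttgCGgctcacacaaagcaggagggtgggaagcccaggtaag
Galnt3: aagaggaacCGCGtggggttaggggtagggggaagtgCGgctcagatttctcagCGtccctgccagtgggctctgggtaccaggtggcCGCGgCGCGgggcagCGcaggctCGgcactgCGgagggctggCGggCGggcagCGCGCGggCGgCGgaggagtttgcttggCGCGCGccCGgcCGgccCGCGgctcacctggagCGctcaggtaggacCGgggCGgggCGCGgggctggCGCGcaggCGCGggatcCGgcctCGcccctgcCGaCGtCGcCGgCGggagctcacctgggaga
Galnt7: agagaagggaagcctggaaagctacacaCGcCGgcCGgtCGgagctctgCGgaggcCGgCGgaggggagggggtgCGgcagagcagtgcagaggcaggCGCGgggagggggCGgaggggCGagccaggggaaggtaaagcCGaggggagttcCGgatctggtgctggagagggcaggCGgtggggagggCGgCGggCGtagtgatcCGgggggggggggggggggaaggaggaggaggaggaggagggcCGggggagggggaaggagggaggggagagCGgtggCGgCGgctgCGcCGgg
St8sia6: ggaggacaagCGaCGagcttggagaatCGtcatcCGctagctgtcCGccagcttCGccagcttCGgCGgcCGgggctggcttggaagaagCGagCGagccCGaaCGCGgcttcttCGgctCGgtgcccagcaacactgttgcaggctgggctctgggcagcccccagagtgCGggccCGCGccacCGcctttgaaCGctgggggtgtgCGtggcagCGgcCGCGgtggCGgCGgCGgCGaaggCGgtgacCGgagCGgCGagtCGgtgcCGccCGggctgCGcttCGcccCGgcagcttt

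The Agr2 window held 7 CpG dinucleotides and 47.3% G and C, close to the medians of 7 and 52.7% over 32851 promoters. Galnt3, St8sia6 and Galnt7 held 41, 39 and 25 CpG dinucleotides, and as many or more were found in 3.46%, 4.45% and 18.4% of promoters. Of the 4 windows, that of Agr2 had the fewest CpG dinucleotides. On both strands, 8 short motifs were searched. The Agr2 window held none of them: neither the palindrome of the STAT6 type, TTC and GAA parted by 4 bases (in 6.95% of all promoters), nor the forkhead cores TGTTTAC (3.65%) and TGTTTGC (5.07%), nor TATAAA (13.6%). CCACG, the core of the endoplasmic reticulum stress element, occurred once in the Galnt3 and once in the St8sia6 window (32.8%). TGACG, the short core of the cAMP response element, occurred once in the St8sia6 window (20.8%), while the full element TGACGTCA, which contains it, occurred in none of the 4 (1.79%). CCGGAA, an ETS core, occurred once in the Galnt7 window (14.9%). These matches describe letters and not bound sites.

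With both exposures, 5 of the 8 genes rose against Control and the other 3 were under the level, when 13.9% of the 11333 genes tested were called higher (limma, adjusted p under 0.05). Agr2 and Creb3l1 entered this test through OVA/PM alone, so the count is a description. The median log2 fold change of the 5 genes tested was 2.04, beside 0.01 over all genes tested. The rise ranged from 1.81-fold for Galnt3 to 36.1-fold for Agr2 (ratios of linear means). In each of the 5 genes all 3 OVA/PM arrays lay above all 3 Control arrays, a pattern held by 26.1% of genes. Leaving out OVA/PM replicate 3 kept all 5 calls. Leaving out Control replicate 2 ended that of Creb3l1 (adjusted p = 0.0538) and no other. SAM, the permutation method named in the study's methods, called the same 5 genes, with no share of all genes called given here. In whole lung, more cells of a type and more RNA per cell cannot be told apart.

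Agr2 encodes a disulfide isomerase of the endoplasmic reticulum that goblet cells need to make mucin. Its main probe set, 1419268_at, read 5.49, 5.87 and 4.82 in the Control arrays and 10.63, 10.62 and 10.62 in the OVA/PM arrays. The PM-labelled arrays read 7.67, 7.18 and 8.15, and the OVA-labelled arrays 9.48, 7.94 and 9.12. All 9 exposed arrays thus lay above all 3 Control arrays, and the PM-labelled and OVA-labelled arrays overlapped. Against Control the log2 fold change was 5.23 in OVA/PM (SE 0.25, adjusted p = 0.000195, limma), a ratio of 36.1 ± 12.4 (SD, n = 3). It was 3.45 in the OVA-labelled group (SE 0.46, adjusted p = 0.0125), a ratio of 11.5 ± 6.75 (SD, n = 3). In the PM-labelled group it was 2.27 (SE 0.34, adjusted p = 0.162), a ratio of 4.81 ± 2.30 (SD, n = 3) that did not pass the threshold over all probe sets. OVA/PM was higher than the PM-labelled group by 2.96 (SE 0.23, adjusted p = 0.00149). Its difference of 1.78 from the OVA-labelled group (SE 0.38, adjusted p = 0.310) did not pass, although the arrays did not overlap.

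A further Agr2 probe set, 1455802_x_at, has the suffix that marks probes shared with other sequences, and it gave smaller differences. It read 5.50, 5.38 and 5.49 in Control, 5.83, 5.63 and 6.22 in the PM-labelled arrays, 7.07, 5.76 and 6.05 in the OVA-labelled arrays and 8.06, 8.37 and 7.12 in OVA/PM. The Control arrays lay below and the OVA/PM arrays above all others, and the single exposures overlapped. The log2 fold change of OVA/PM against Control was 2.39 (SE 0.31, adjusted p = 0.00467), under the 5.23 of the main probe set. Against Control the OVA-labelled group differed by 0.84 (SE 0.33, adjusted p = 0.117), so here the 2 probe sets disagree on the call.

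Ern2 encodes IRE1β, the epithelial form of the IRE1 sensor of unfolded protein, found in mucus-secreting cells of gut and airway. Its single probe set read 2.09 to 2.16 in Control, 2.13 to 2.17 in the PM-labelled arrays, 2.15 to 2.18 in the OVA-labelled arrays and 2.23 to 2.78 in OVA/PM. All 12 arrays were under the level, so the gene was not tested. The OVA/PM arrays read 2.24, 2.23 and 2.78, the last of them in the replicate whose spiked controls stood apart.

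Galnt3 and Galnt7 encode GalNAc transferases: Galnt3 can start an O-glycan on a bare peptide, whereas Galnt7 acts on peptides that already carry GalNAc. Galnt3 (1417588_at) read 7.39, 7.46 and 7.73 in Control and 7.44, 7.81 and 7.64 in the PM-labelled arrays. The OVA-labelled arrays read 8.70, 7.98 and 8.30, and the OVA/PM arrays 8.35, 8.41 and 8.41. The values thus fell in 2 pairs, with Control and PM-labelled arrays interleaved at the lower level and OVA-labelled and OVA/PM arrays interleaved at the higher one. Against Control the log2 fold change was 0.86 in OVA/PM (SE 0.11, adjusted p = 0.00504), 0.80 in the OVA-labelled group (SE 0.20, adjusted p = 0.0423) and 0.10 in the PM-labelled group (SE 0.14, adjusted p = 0.861). OVA/PM exceeded the PM-labelled group by 0.76 (SE 0.12, adjusted p = 0.0108), and differed from the OVA-labelled group by 0.06 (SE 0.18, adjusted p = 0.926). The other 2 Galnt3 probe sets stayed between 2.03 and 2.65 in all 12 arrays, so the gene rests on 1 probe set.

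The main probe set of Galnt7 (1452232_at) read 8.73, 8.76 and 8.55 in Control, 8.89, 8.99 and 9.26 in the PM-labelled arrays, 9.66, 9.31 and 9.77 in the OVA-labelled arrays and 9.98, 10.17 and 10.14 in OVA/PM. No group overlapped another. The log2 fold change against Control was 1.42 in OVA/PM (SE 0.10, adjusted p = 0.000714), a ratio of 2.67 ± 0.277 (SD, n = 3), and 0.90 in the OVA-labelled group (SE 0.14, adjusted p = 0.0163). The PM-labelled group differed by 0.37 (SE 0.12, adjusted p = 0.527). OVA/PM exceeded the PM-labelled group by 1.05 (SE 0.13, adjusted p = 0.00488), and its difference from the OVA-labelled group was 0.51 (SE 0.14, adjusted p = 0.440). The other 2 probe sets of Galnt7 gave the same calls in these 5 comparisons, with log2 fold changes of 1.54 and 1.63 in OVA/PM against Control.

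**Figure D2:**
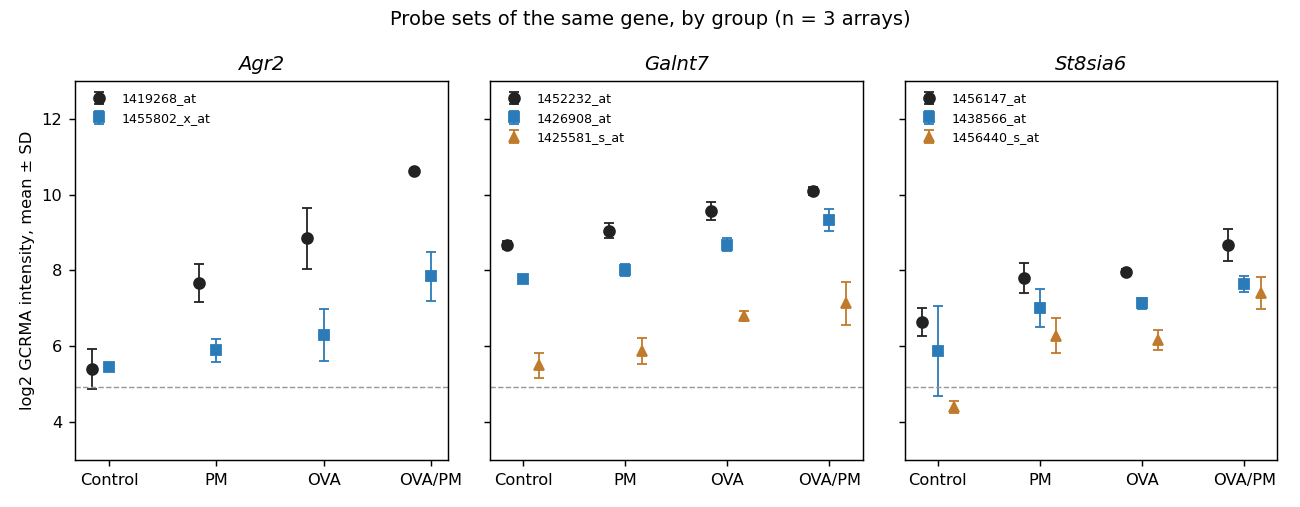
Group means of log2 GCRMA intensity (vertical axis, bars show the SD of 3 arrays) for the measured probe sets of Agr2, Galnt7 and St8sia6, by group. The dashed line is the level of 4.93, and the rise of Agr2 from Control to OVA/PM is 5.23 with one probe set and 2.39 with the other.

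St8sia6 encodes an α2,8-sialyltransferase that adds sialic acid to sialylated O-glycans. Its main probe set (1456147_at) read 6.22, 6.97 and 6.73 in Control, 7.46, 7.72 and 8.25 in the PM-labelled arrays, 7.90, 8.02 and 7.98 in the OVA-labelled arrays and 8.86, 8.20 and 8.97 in OVA/PM. Every exposed array was above every Control array, and the OVA-labelled arrays lay within the range of the PM-labelled ones. Against Control the log2 fold change was 2.04 in OVA/PM (SE 0.27, adjusted p = 0.00499), a ratio of 4.12 ± 1.49 (SD, n = 3), and 1.33 in the OVA-labelled group (SE 0.19, adjusted p = 0.0145). The PM-labelled group differed by 1.17 (SE 0.26, adjusted p = 0.347). The differences of OVA/PM from the PM-labelled and OVA-labelled groups were 0.87 (SE 0.27, adjusted p = 0.0871) and 0.71 (SE 0.21, adjusted p = 0.456).

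St8sia6 was also measured by a probe set with the suffix _s_at, which read 4.20, 4.51 and 4.45 in Control, all under the level. It read 5.80, 6.28 and 6.75 in the PM-labelled arrays, 6.33, 5.85 and 6.30 in the OVA-labelled arrays and 7.50, 6.93 and 7.76 in OVA/PM. All 9 exposed arrays were over the level. Measured against the level of 4.93, OVA/PM was at least 5.53-fold higher than Control (adjusted p = 0.000714) and the OVA-labelled group at least 2.35-fold (adjusted p = 0.00691). The PM-labelled group, at least 2.54-fold higher, had an adjusted p of 0.0980. This was the 1 of 10 measured probe sets whose PM-labelled mean, 6.28, was over its OVA-labelled mean, 6.16. With 1438566_at, where Control replicate 1 read 4.51 and the others 6.61 and 6.49, OVA/PM exceeded Control by 1.78 (SE 0.55, adjusted p = 0.0651), which did not pass.

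Gcnt3, which branches O-glycans into core 2 and core 4 structures, and Fut2, which adds the terminal α1,2-linked fucose of secretor-type glycans, were not measured above the level. The brightest Gcnt3 probe set (1424901_at) read 3.06 to 3.15 in Control and 3.13 to 3.26 in OVA/PM, and its other probe sets 1.90 to 2.21 over all arrays. The brighter Fut2 probe set (1434862_at) read 3.72 to 3.87 in Control, 3.83 to 3.87 in the PM-labelled arrays, 3.87 to 4.09 in the OVA-labelled arrays and 3.85 to 4.24 in OVA/PM. The other Fut2 probe set read 2.29 to 2.51. No fold is given for these genes, since both sides of each comparison were under the level, and a change below it was not detectable on these arrays.

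Creb3l1, also called OASIS, encodes a membrane-bound transcription factor that is released from the endoplasmic reticulum by cleavage in the Golgi apparatus and raises secretory pathway genes. Its single probe set (1419295_at) read 4.36, 5.23 and 6.20 in Control, 5.64, 6.33 and 6.19 in the PM-labelled arrays, 7.56, 6.14 and 6.19 in the OVA-labelled arrays and 7.63, 7.43 and 8.03 in OVA/PM. The Control arrays were spread widely, and their highest value lay within both single exposures. The log2 fold change of OVA/PM against Control was 2.43 (SE 0.45, adjusted p = 0.0143), a ratio of 4.80 ± 3.15 (SD, n = 3). The OVA-labelled group differed from Control by 1.37 (SE 0.58, adjusted p = 0.136) and the PM-labelled group by 0.79 (SE 0.46, adjusted p = 0.699). OVA/PM exceeded the PM-labelled group by 1.65 (SE 0.23, adjusted p = 0.00793). Against the OVA-labelled group, whose replicate 1 reached into the OVA/PM range, the difference was 1.07 (SE 0.40, adjusted p = 0.553).

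**Figure D3:**
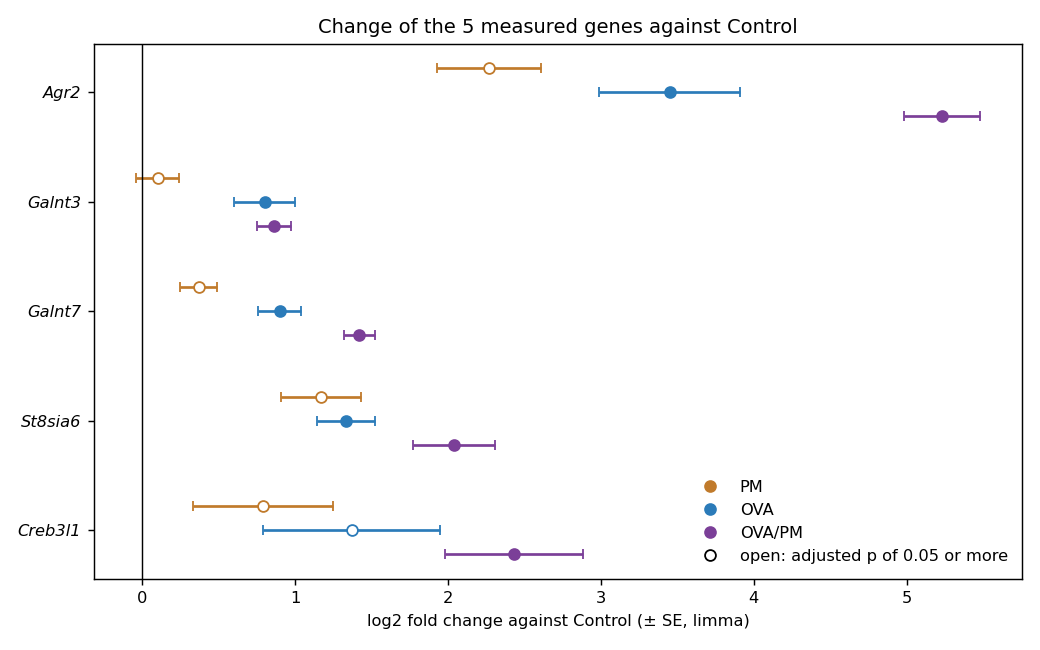
Log2 fold change against Control (horizontal axis, bars show the SE from limma) of the 5 measured genes in the PM-labelled, OVA-labelled and OVA/PM groups, 3 arrays per group. Filled points have an adjusted p under 0.05: all 5 genes in OVA/PM, 4 in the OVA-labelled group and none in the PM-labelled group.

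In the OVA-labelled group 4 of the 5 measured members rose against Control (Agr2, Galnt3, Galnt7 and St8sia6), when 11.3% of 11326 genes were called higher. In the same 4 genes all 3 arrays lay above all 3 Control arrays, as they did in 25.3% of genes. The median log2 fold change of the 5 tested was 1.33, beside 0.00 over all genes. SAM also called Creb3l1 (q = 0.0264). These calls were lost on leaving out certain arrays, while the direction held. The log2 fold change then ranged from 3.14 to 3.91 for Agr2 and from 0.61 to 0.97 for Galnt3. For Galnt7 it was 0.81 to 1.04 and for St8sia6 1.12 to 1.49. Each of these fits had an array fewer, and the share of all genes it called is not given here. Without OVA replicate 3 none of the 4 passed, with adjusted p-values of 0.0596 for Agr2, 0.123 for Galnt3, 0.0658 for Galnt7 and 0.0655 for St8sia6. Galnt7 was also lost without Control replicate 2 (0.0576) and without OVA replicate 1 (0.0561). Galnt3 was lost without any one of the 3 Control arrays or OVA replicate 1 (0.0591 to 0.1225), and its only call on leaving out an array came without OVA replicate 2 (0.0215).

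In the PM-labelled group 0 of the 5 passed against Control by limma, and 0 by SAM, when 0.0986% of 11158 genes were called higher. At an unadjusted p under 0.05 there were 3 (Agr2, Galnt7 and St8sia6), beside 631 of the 11158 genes, and the same 3 had no overlap with Control, as 8.55% of genes did. With so few genes called in this comparison, the lack of a call does not show that these 3 genes were unchanged.

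The added effect of one exposure on the other was asked with OVA/PM against each single exposure. Against the PM-labelled group 4 of 5 rose (Agr2, Galnt3, Galnt7 and Creb3l1), when 9.13% of 11336 genes did, and all 4 passed on leaving out any array. SAM and the fit of all 4 groups also called St8sia6 (q = 0.0383 and adjusted p = 0.0444). Against the OVA-labelled group 0 of 5 passed by limma and 0 by SAM, when 0.15% of 11346 genes were called higher. There were 4 with an unadjusted p under 0.05 (all but Galnt3), beside 930 of the 11346 genes, and 3 of them did not overlap (Agr2, Galnt7 and St8sia6), as 8.45% of genes did not.

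Between the single exposures 0 of 5 passed, when 4.23% of 11330 genes were called lower in the PM-labelled group, and 3 had an unadjusted p under 0.05, as had 3724 of the 11330 genes. The PM-labelled minus OVA-labelled difference was -1.18 for Agr2 (SE 0.44, adjusted p = 0.136), -0.70 for Galnt3 (SE 0.20, adjusted p = 0.0827) and -0.53 for Galnt7 (SE 0.16, adjusted p = 0.0867). St8sia6 and Creb3l1 differed by -0.16 (SE 0.20) and -0.58 (SE 0.42). SAM and the fit of all 4 groups called Galnt3 and Galnt7 lower, and so were the other 2 Galnt7 probe sets by limma (-0.66 and -0.92, adjusted p = 0.0458 and 0.0469). Without OVA replicate 2, whose Agr2 value of 7.94 was the lowest of its group, Agr2, Galnt3 and Galnt7 all passed (-1.64, -0.87 and -0.67, adjusted p = 0.0298, 0.0349 and 0.0361).

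Departure from additivity on the log2 scale was tested as the interaction of the exposures over all 12 arrays. By limma 0 of 5 members passed, 0 had an unadjusted p under 0.05, and 0.00876% of 11414 genes were called higher and 0.0263% lower. The interaction term was -0.49 for Agr2 (SE 0.56, adjusted p = 0.949), -0.04 for Galnt3 (SE 0.24), 0.14 for Galnt7 (SE 0.19), -0.46 for St8sia6 (SE 0.36) and 0.28 for Creb3l1 (SE 0.67). SAM was not run on this term. The synergistic index of the study's methods, the linear difference of OVA/PM from Control over the sum of the differences of the single exposures, equals 1 for an additive response. For physiologic parameters those methods also asked that the combined difference significantly exceed that of each single exposure. The index alone is given here. It was 2.45 (SE 0.562) for Agr2, 1.84 (SE 0.982) for Creb3l1, 1.41 (SE 0.267) for Galnt7, 1.15 (SE 0.290) for St8sia6 and 0.964 (SE 0.319) for Galnt3. Only for Agr2 and Galnt7 did the index exceed 1 by more than its SE, and on the log2 scale that of Agr2 was 0.914.

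To set the members beside products of goblet cells, 2 such products were read on the same arrays. Clca1, a secreted protein that marks goblet cells, read 2.38 to 2.40 in Control, 13.95 to 14.88 in the PM-labelled arrays, 8.10 to 8.69 in the OVA-labelled arrays and 14.49 to 14.71 in OVA/PM. Muc5ac, the inducible airway mucin, read 1.70, 2.34 and 2.12 in Control, 5.51, 5.14 and 7.72 in the PM-labelled arrays, 6.06, 4.07 and 5.18 in the OVA-labelled arrays and 9.45, 9.75 and 9.82 in OVA/PM. Clca1 was higher in the PM-labelled than in the OVA-labelled group by 5.92 (SE 0.28, adjusted p = 0.00308, limma). For Muc5ac this difference was 1.02 (SE 0.80, adjusted p = 0.413), which did not pass, and the arrays overlapped. The main probe sets of all 5 measured members had means that ran the other way, and none of these differences passed by limma. How the members differ in this from Clca1 and Muc5ac was not tested. OVA/PM exceeded the OVA-labelled group by 6.26 for Clca1 (SE 0.17, adjusted p = 4.45e-05) and by 4.57 for Muc5ac (SE 0.47, adjusted p = 0.0431), a comparison in which no member passed.

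**Figure D4:**
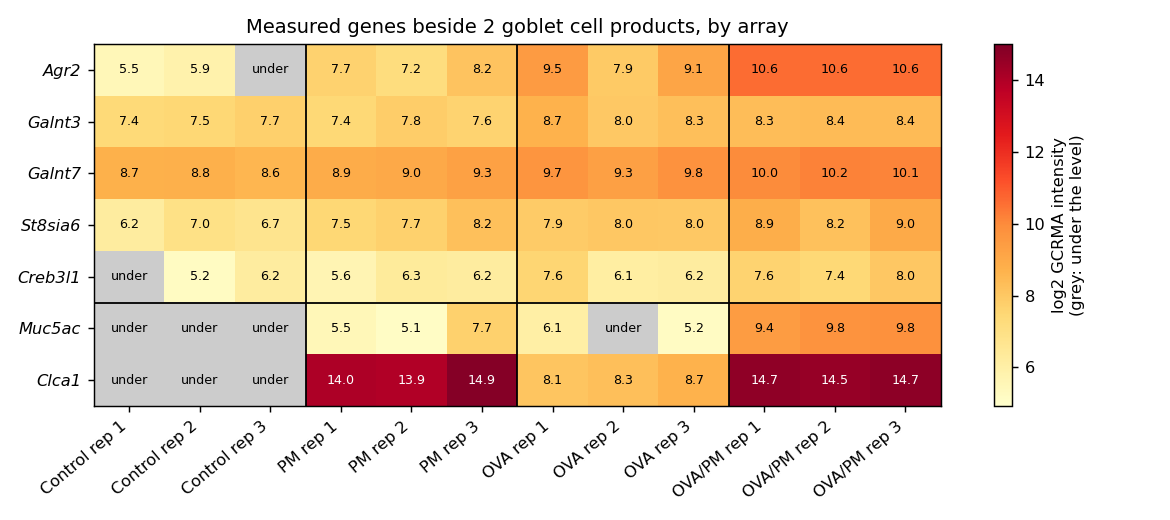
Log2 GCRMA intensity (colour and printed value) of the 5 measured genes and of Muc5ac and Clca1, with the 12 arrays as columns, to be read along each row. Grey cells lie under the level of 4.93 and carry no order: they hold all 3 Control arrays of Clca1 and Muc5ac. Also grey are OVA replicate 2 for Muc5ac, Control replicate 3 for Agr2 and Control replicate 1 for Creb3l1. Agr2 is highest in the 3 OVA/PM arrays, and Clca1 is higher in the PM-labelled than in the OVA-labelled arrays.

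Across the 12 arrays, which share 4 groups and 1 normalization, Pearson's r was 0.971 between Agr2 and Galnt7, 0.907 between Agr2 and St8sia6 and 0.706 between Galnt3 and St8sia6, the lowest between measured members. With Muc5ac, r was 0.921 for Agr2 and 0.653 for Galnt3, and with Clca1 it was 0.75 and 0.374. Over 11414 genes, the 3 most like Agr2 were Slc5a1 (a sodium-glucose transporter, r = 0.978), Galnt7 and Nars (asparaginyl-tRNA synthetase, r = 0.970). Galnt3 was most like Cct3 (a chaperonin subunit, r = 0.991), Adar (an RNA editing enzyme, r = 0.983) and Trim30a (r = 0.982). Galnt7 was most like Tent5a (r = 0.987), Il33 (the alarmin interleukin-33, r = 0.984) and Dpy19l1 (r = 0.981), and St8sia6 was most like Adamdec1 (r = 0.977), Slc38a1 (an amino acid transporter, r = 0.971) and Tinag (r = 0.950). Creb3l1 was most like Pik3r6 (r = 0.985), Cd24a (r = 0.978) and Mogs (a glucosidase that trims N-glycans, r = 0.970). These are descriptions of 12 arrays, and genes are not independent replicates.

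Other genes of the pathway were counted on 7 lists. In OVA/PM against Control, 23 of the 102 tested were called higher and 7 lower, beside 13.9% and 9.74% of all genes. Of 9 other GalNAc transferases, 2 rose (Galnt6 by 2.63 and Galnt12 by 1.58) and 2 fell (Galnt15 with a log2 fold change of -2.11 and Galnt18 with -0.64), with a list median of 0.09 against 0.01 over all genes. Galnt6 was also called lower in the PM-labelled than in the OVA-labelled group, by -1.56 (SE 0.13, adjusted p = 0.0136). Of 11 enzymes of O-glycan core and branching, 3 rose and 2 fell, among them B3gnt5 (1.63), B4galt4 (-0.82), B4galnt1 (0.64) and B4galt5 (0.57), with a median of 0.35. Without OVA/PM replicate 3, 0 of these rose and 1 fell. That fit had an array fewer, and the share of all genes it called is not given here.

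In fucose and sialic acid metabolism, 2 of 8 other fucosylation genes rose in OVA/PM, Fut4 (a fucosyltransferase, 1.05) and Slc35c1 (the Golgi GDP-fucose transporter, 0.66), with a median of 0.08. Of 17 other sialylation genes 2 rose and 2 fell, with a median of -0.05. Nans (0.88) and Cmas (0.51), which make sialic acid and activate it to CMP-sialic acid, rose, while the sialyltransferases St3gal2 (-0.59) and St3gal6 (-0.49) fell. Both lists had the same counts without OVA/PM replicate 3.

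In the endoplasmic reticulum, 4 of 15 disulfide isomerases and their partners rose in OVA/PM and none fell: Agr3, the near relative of Agr2 (1.07), Ero1b (an oxidase that recharges them, 0.84), Erp29 (0.69) and Pdia6 (0.38), with a median of 0.22. Of 24 sensors and chaperones of the unfolded protein response 6 rose, led by Sdf2l1 (1.07), Creld2 (0.97) and Manf (0.69), with a median of 0.25, and 3 rose without OVA/PM replicate 3. Of 18 genes of the Creb3 family and of secretory cargo transport 4 rose and 1 fell, the largest being Kdelr3 (1.23) and Golm1 (1.01), with a median of 0.07. Without that array 3 rose and 0 fell. Beside Ern2, which was under the level, its paralog Ern1 fell in the OVA-labelled group, by -0.37 on the log2 scale against Control (SE 0.08, adjusted p = 0.0289, limma). In that comparison 7.58% of all genes were called lower. The Ern1 mean was not lower in OVA/PM, at 9.88 against 9.72 in Control.

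In the OVA-labelled group 13 of 101 pathway genes were called higher and 5 lower, beside 11.3% and 7.58% of all genes, with Galnt6 (2.18), B3gnt5 (1.33), Agr3 (1.09) and Sdf2l1 (0.97) among those that rose. In the PM-labelled group 0 of 101 were called by limma or by SAM, and 4 had an unadjusted p under 0.05, beside 631 of 11158 genes. Against the OVA-labelled group 0 of 102 were called in OVA/PM by either. There were 18 with an unadjusted p under 0.05, beside 930 of 11346 genes, and 10 of the 18 were among the 24 genes of the unfolded protein response. The lists were not counted without OVA/PM replicate 3 in this comparison.

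Markers of other cells were counted in the same way. Over all genes, 13.9% were called higher and 9.74% lower in OVA/PM against Control. In the OVA-labelled group these shares were 11.3% and 7.58%, and 0.0986% were called higher in the PM-labelled group. Of 14 goblet cell markers 11 were tested in OVA/PM against Control and all 11 rose, as did 4 of 9 in the PM-labelled and 5 of 8 in the OVA-labelled group. The log2 of their summed linear level was 11.78 to 12.12 in Control, 14.95 to 15.68 in the PM-labelled arrays, 13.44 to 14.15 in the OVA-labelled arrays and 15.75 to 15.91 in OVA/PM. Foxa3, Tff3 and Zg16 of that list lay under the level in all 12 arrays, and Spdef, a regulator of goblet cells, had group means of 2.39 to 2.65 outside OVA/PM and 5.85 in it. Goblet cell markers that lay under the level in Control passed the filter only through exposed groups, so their count is a description. Of 8 pan-epithelial markers tested 1 rose in OVA/PM (0 without OVA/PM replicate 3) and 0 in the single exposures by limma. SAM, whose share over all genes is not given here, called 3 of them in OVA/PM, 4 in the OVA-labelled group and 0 in the PM-labelled group. Their summed level was 15.14 to 15.21 in Control and 15.19 to 15.37 in OVA/PM.

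Plasma and B cells also have a large secretory apparatus. Of 9 of their markers tested 5 rose in OVA/PM (3 without OVA/PM replicate 3) and 0 in either single exposure by limma. SAM, whose share over all genes is not given here, called 7 of them in OVA/PM, 6 in the OVA-labelled group and 0 in the PM-labelled group. Their summed level was 13.36 to 13.91 in Control, 13.98 to 14.80 in the PM-labelled arrays, 13.91 to 14.04 in the OVA-labelled arrays and 14.64 to 15.18 in OVA/PM. Of 10 macrophage markers 8 rose in OVA/PM, 7 in the OVA-labelled and 0 in the PM-labelled group, with summed levels of 15.74 to 15.81 in Control, 15.70 to 15.89 in the PM-labelled arrays, 16.15 to 16.35 in the OVA-labelled arrays and 15.98 to 16.32 in OVA/PM. In OVA/PM against Control, club cell markers had 2 higher and 3 lower of 8, multiciliated cell markers 3 higher and 1 lower of 9, alveolar type 2 markers 1 higher and 1 lower of 8, and fibroblast markers 2 higher and 1 lower of 8. Without OVA/PM replicate 3 these counts were 2 and 2, 2 and 1, 0 and 1, and 2 and 0. Of 10 striated muscle markers 4 were called lower in OVA/PM, and 0 without OVA/PM replicate 3. The share of all genes called without that array is not given here. Whether the array itself or the smaller group changed these counts was not tested. The part of these cell types in the values of the members was not tested.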

How the data were processed

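Lung RNA was hybridised to 12 arrays, 1 per sample. The authors deposited log2 intensities made with GCRMA, which corrects background by probe composition, quantile-normalizes the arrays and combines the probes of a set. The submitters' processing notes list MAS5 as well, without a version for either tool. Because quantile normalization sets all arrays to 1 distribution, a shift common to most genes cannot be seen.

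Groups were compared in pairs with limma 3.58.1 in R 4.3.3, with p-values adjusted by Benjamini-Hochberg over every probe set kept (64 control probe sets were left out). The level of 4.93 stands in for detection calls, which were not used here. Folds are ratios of linear means, with an SD propagated from the arrays. A gene is represented by its probe set with the highest mean. The pathway genes named are up to 4 per list, by the largest change among those called. Members, lists and tests were chosen with earlier results of these data known. An exact permutation test has a smallest p of 0.1 at 3 arrays a group, so tests of single genes are those of limma. SAM used all 20 relabelings. The shares of all genes given here are those of limma, and SAM could call more. In OVA against Control it called 7 of the 11 enzymes of O-glycan core and branching, where limma called 2. The number of arrays limits the precision. The scripts were tested on simulated data. Alternatives are given in the closing section.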

Additional observations from a re-analysis of the deposited data

Results flagged for a closer look

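In data outside the comparisons, the spiked hybridization controls BioB and BioC, bacterial transcripts added before hybridization, had mean log2 intensities of 6.65 and 7.56 in OVA/PM replicate 3. The highest values among the other 11 arrays were 4.68 and 3.95. The same array had the highest BioDn (10.52) and CreX (13.75) values. All 5 members called in OVA/PM against Control were also called without this array, with adjusted p-values from limma of 0.00304 for Agr2 and 0.00617 for Galnt7.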

How the results depend on the processing

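The counts of members called and the synergistic indices stayed within their limits in 155 of 167 values under the alternatives, and the single genes kept direction and side of the threshold in 452 of 486. With the filter at the 75th percentile (8.65), which leaves fewer genes tested, the counts fell to 1 in OVA against Control, 2 in OVA/PM against Control and 2 in OVA/PM against PM. Replicate numbers did not pair the arrays (of 18 same-numbered pairs, the deviations of 3 correlated above 0.1, with a median of -0.06, and 2 of 12 arrays were closest to one of their own number). With the replicate number as a block the count in OVA against Control was 0 in place of 4, and no other count left its limits. On leaving out 1 array the count ranged from 0 to 4 in OVA against Control and from 0 to 3 in PM against OVA. In PM against OVA the count was 2 with SAM, 2 in the fit of all 4 groups and 1 with the probe set of the lowest p, all lower. The log2 scale gave Agr2 an index of 0.914. Reversed values, none of them called, came on leaving out 1 array for Galnt3 in OVA/PM against OVA (-0.11 to 0.25), St8sia6 in PM against OVA (-0.38 to 0.02) and the interaction terms of Galnt3 (-0.21 to 0.15) and Creb3l1 (-0.19 to 0.75), and with the probe set of the lowest p for the interaction term of Agr2 (1.12). Galnt3 in OVA against Control had an adjusted p of 0.0939 with no filter. The cause of these shifts was not tested. The counts of the lists without OVA/PM replicate 3 were chosen after seeing the data, and the lists were recounted without no other array. Intensities near 2 to 4 lie at the floor of GCRMA and have no order.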
